A study of Mus musculus with 13 samples.

Results

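The genes described here are 8 genes of receptors, or receptor partners, that act through the stimulatory G protein Gs, together with Gnas, the gene of its alpha subunit. They are Adora2b, Ptger2, Ptger4, Calcrl, Ramp1, Ramp2, Ramp3, Pth1r and Gnas, 9 of the 35498 genes with an identifier in the deposited tables. They were chosen by name, with earlier results of these data known. Of the 9, 7 passed the filter on low counts that 13044 genes passed in all, and Ptger2 and Ramp1 did not.

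The study measured poly(A) RNA in 13 libraries of cultured mouse melanoma cell lines that were given doxycycline for 0, 6 or 48 h to induce soluble adenylyl cyclase (sAC) in a chosen compartment. The groups follow the sample titles, which name a construct, a cell line number and a time. Lines 6, 7 and 16 are titled NLS and were sampled at t0 (no doxycycline), t6 and t48, giving 3 libraries a time, while lines 10 and 12 are titled LacZ and were sampled at t0 and t48, giving 2 libraries a time. The sAC compartment is labelled none at t0 and nuclear at the later NLS times. The LacZ t48 libraries also carry the label nuclear, against their titles, and were kept as LacZ. Construct and cell line cannot be told apart, because no line carries both constructs. The labels give neither the promoter nor the clonal origin of the lines, and nothing says that libraries of 1 line came from separate cultures. In comparisons of times or constructs the libraries of a group are different lines, and the p-values cover only the variation among those lines. In comparisons between lines, and in fits with the line as a block, they cover only what varies among libraries of a line beyond the time labels, which may be technical.

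Gs-coupled receptors sit in the plasma membrane. When a ligand binds, Gs is loaded with GTP and activates the membrane adenylyl cyclases, which make cyclic AMP (cAMP); sAC makes the same messenger inside the cell without Gs and is stimulated by bicarbonate. In the melanocyte lineage cAMP is best known as the signal of the melanocortin 1 receptor, which drives pigmentation. The receptors described here answer instead to adenosine, prostaglandin E2, peptides of the calcitonin gene-related peptide and adrenomedullin family, and parathyroid hormone and its related peptide.

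Total estimated reads ranged from 18512887 to 22584628 a library. Adcy10, the mouse gene of sAC, did not follow the time labels. It lay between 181.2 and 371.2 CPM (estimated reads scaled to library size) in all 6 libraries of lines 6 and 7, t0 included, between 0.671 and 1.22 CPM in line 16, and at no more than 0.167 CPM in LacZ. Times are therefore given as labels, and every direction below is a difference between libraries labelled with those times. Markers of pigment cells were scarce, with Tyrp1 at 0 reads in all 13 libraries, Sox10 at no more than 0.0512 CPM and Mitf between 2.76 and 5.37 CPM. Of the 7 melanocyte markers, 2 were tested. Neither was called at NLS t6 or t48 against t0, where 20.8 and 26.1% of all tested genes were. At NLS t48 against t6, 1 of the 2 was called lower, where 13.6% of all tested genes were. Markers of fibroblasts were mixed. Collagen genes were abundant (Col1a1 at 2560 to 6920 CPM), Pdgfra lay between 12.5 and 256 CPM and Dcn between 3.13 and 18.5 CPM, while Lum and Thy1 had at most 0.0536 and 0.0942 CPM. The summed level of the 7 fibroblast markers was 7860 to 8020 CPM in LacZ t0, 6970 to 7360 in LacZ t48, and 9800 to 12000, 7590 to 9230 and 15800 to 16900 CPM in NLS t0, t6 and t48. Of the 5 tested fibroblast markers, 3 rose at NLS t48 against t0 (Col3a1 from 2853 ± 134 to 5353 ± 244 CPM, SD, n = 3), where 14.8% of all tested genes were called higher. At NLS t6 against t0, 2 were lower, against 9.23% of all tested genes. Between constructs at t48, 4 were higher and 1 lower in NLS, against 23 and 22.2%. Acta2, a smooth muscle and myofibroblast actin, went from 390.1 ± 65.7 to 1683 ± 242 CPM in LacZ (n = 2) and from 609 ± 227 to 1759 ± 339 CPM in NLS between t0 and t48. It is 1 of 5 pericyte and smooth muscle markers, of which 2 were tested. In LacZ at t48 against t0, 1 was called higher and 1 lower, against 8.68 and 9.87% of all tested genes. At NLS t48 against t0, 1 was higher and 0 lower, against 14.8 and 11.3%. At NLS t48 against t6, 1 was higher and 1 lower, against 14.6 and 13.6%. The part of these markers in the t48 differences below was not tested. Of 7 endothelial markers, Kdr and Emcn had no reads and only Pecam1 passed the filter, at 2.1 to 4.22 CPM.

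Levels spanned a wide range between these genes. On the TPM scale, which divides by transcript length and so lets genes be set beside each other, Gnas had a median level of 940.5 over the 13 libraries. Ramp3 came next at a median of 14.02 TPM, then Ramp2 at 6.32, Adora2b at 3.43, Ptger4 at 1.70, Pth1r at 1.201 and Calcrl at 1.14 TPM. The neighbours in this order overlapped in their ranges from Ramp3 downwards, and Gnas alone stood apart, from 705.0 to 1034 TPM. Apart from Gnas, each tested gene was counted from few reads, between 8 (Pth1r) and 452 (Ramp3) in a library. In bulk RNA, fewer expressing cells and less RNA per cell cannot be told apart.

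**Figure D1:**
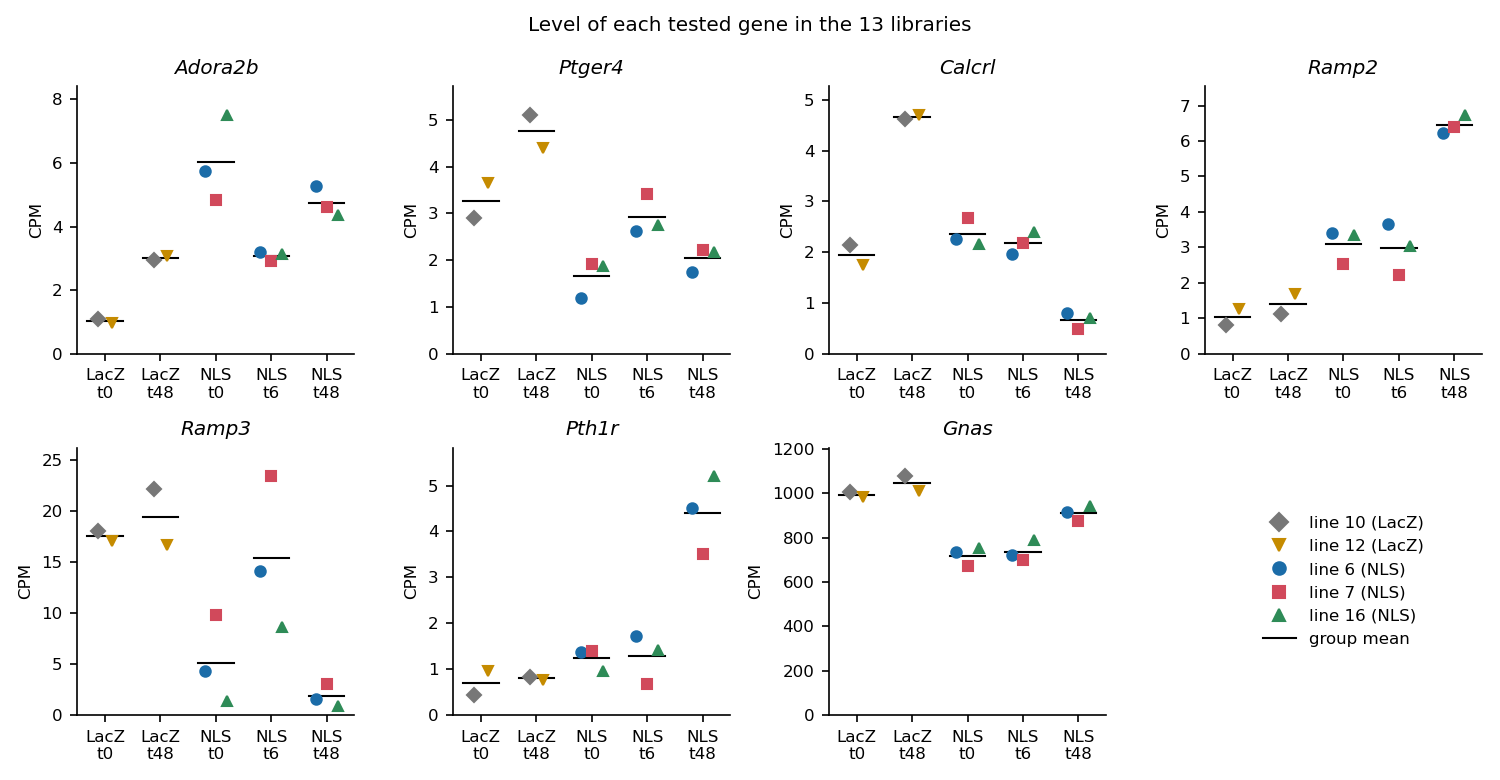
Each panel shows 1 gene, with its level in CPM (linear axis from 0) in each library by group; symbols mark the cell line and the black line is the group mean. Calcrl fell and Ramp2 and Pth1r rose in all 3 NLS lines at the t48 label, and the 3 lines keep the order 7, 6, 16 for Ramp3 at each NLS time.

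Adora2b (ENSMUSG00000018500, chr11:62248984-62266453, plus strand, GRCm38) encodes the low-affinity adenosine receptor A2B. It stood lowest in LacZ t0, at 1.07 CPM in line 10 and 0.949 in line 12, and reached 2.95 and 3.07 CPM in the same lines at LacZ t48. In the NLS lines 6, 7 and 16 it was at 5.75, 4.85 and 7.52 CPM at t0, at 3.18, 2.90 and 3.12 CPM at t6, and at 5.27, 4.62 and 4.35 CPM at t48. Both LacZ lines were thus higher at t48 than at t0, all 3 NLS lines were lowest at t6, and no NLS t0 library overlapped LacZ t0. Adora2b rose 2.97-fold in LacZ at t48 (log2 fold change 1.57, SE 0.25, edgeR adjusted p = 0.000866) and fell 1.96-fold in NLS at t6 (-0.97, SE 0.17, adjusted p = 0.00128). From NLS t6 to t48 it rose again by 1.55-fold (0.63, SE 0.17, adjusted p = 0.0134), and NLS t48 against t0 was not called (-0.34, SE 0.16, adjusted p = 0.142). The t48 change of NLS minus that of LacZ was -1.91 on the log2 scale (SE 0.30, adjusted p = 0.000542, a 3.77-fold difference). Between constructs, Adora2b was 5.95-fold higher in NLS than in LacZ at t0 (2.57, SE 0.22, adjusted p = 8.69e-07) and 1.58-fold higher at t48 (0.66, SE 0.19, adjusted p = 0.0137). Leaving out line 6 ended the call from t6 to t48 (adjusted p = 0.139), as did leaving out the NLS t48 library of line 6 alone (0.0603). The LacZ rise was no longer called when line 12 was dropped (0.051), nor the difference at t48 without the LacZ t48 library of line 10 (0.0839) or of line 12 (0.0597).

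The sequence upstream of the start of 3 genes is shown because these are the genes whose levels moved most in NLS between t0 and t6: Adora2b, Ptger4 and Ramp3. Each line holds the 250 bases before a RefSeq start site on the gene's strand (build GRCm38.p6), and capitals mark GGGCGG or its reverse complement CCGCCC, the core of the GC box that Sp-family factors bind. The Adora2b window is chr11:62248734-62248983 (plus strand), the Ptger4 window chr15:5244188-5244437 (minus strand) and the Ramp3 window chr11:6658283-6658532 (plus strand), whose last 12 bases lie in an annotated exon.
Adora2b: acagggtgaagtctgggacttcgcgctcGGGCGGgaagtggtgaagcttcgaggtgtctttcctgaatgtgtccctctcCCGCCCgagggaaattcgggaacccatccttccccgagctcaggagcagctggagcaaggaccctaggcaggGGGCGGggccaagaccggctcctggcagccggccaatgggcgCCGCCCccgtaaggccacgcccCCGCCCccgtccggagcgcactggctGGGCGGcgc
Ptger4: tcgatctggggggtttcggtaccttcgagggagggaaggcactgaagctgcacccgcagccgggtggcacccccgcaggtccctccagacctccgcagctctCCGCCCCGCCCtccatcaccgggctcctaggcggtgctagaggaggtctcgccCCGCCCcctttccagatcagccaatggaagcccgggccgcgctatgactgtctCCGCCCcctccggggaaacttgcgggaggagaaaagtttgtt
Ramp3: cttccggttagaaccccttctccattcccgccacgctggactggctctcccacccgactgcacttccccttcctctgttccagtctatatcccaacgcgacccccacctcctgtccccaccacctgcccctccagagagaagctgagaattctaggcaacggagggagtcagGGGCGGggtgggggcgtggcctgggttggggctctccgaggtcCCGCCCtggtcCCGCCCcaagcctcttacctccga
Adora2b held 3 GGGCGG and 3 CCGCCC. Ptger4 held 4 CCGCCC, a pair of which share a base, and Ramp3 held 1 GGGCGG and 2 CCGCCC. Of 32851 promoters of this length in the RefSeq table, 32.7% held GGGCGG on either strand. The motif was not particular to the 3 genes shown. It was also in the Calcrl window and in the Gnas windows chr2:174284070-174284319 and chr2:174329756-174330005. The Pth1r windows chr9:110742611-110742860 and chr9:110743687-110743936 held it too. The other Gnas and Pth1r windows and those of Ptger2 and Ramp1 did not. The full palindromic cAMP response element TGACGTCA, which CREB binds, was in 1.55% of all promoters and in none of those found for 8 of the 9 genes, Ramp2 having no entry. Its core TGACG (or CGTCA), which 17.8% of promoters held, was in none of the 3 windows shown. Among the other entries it was in 3 of 4 Gnas promoters and 1 of 3 Pth1r promoters, as CGTCA, and in none of those of Calcrl, Ptger2 and Ramp1. The Gnas windows chr2:174327499-174327748 and chr2:174327518-174327767, both counted among the 3, overlap over most of their length.

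Ptger2 (ENSMUSG00000037759, chr14:44988195-45003820, plus strand) and Ptger4 (ENSMUSG00000039942, chr15:5206661-5244187, minus strand) encode EP2 and EP4, the prostaglandin E2 receptors that couple to Gs. Ptger2 was not detected above a count of 1, found in 1 LacZ t48 library and 1 NLS t48 library; the other libraries had 0 reads, and a count of 0 allows up to 0.131 to 0.167 CPM by library (3 counts, counting error only). Ptger4 was at 2.90 and 3.65 CPM in LacZ t0 (lines 10 and 12) and at 5.11 and 4.40 CPM in LacZ t48. NLS lines 6, 7 and 16 had 1.195, 1.92 and 1.87 CPM at t0, 2.62, 3.42 and 2.76 CPM at t6, and 1.74, 2.22 and 2.18 CPM at t48. Every NLS t6 library lay above every NLS t0 library, and each LacZ t48 library lay above each NLS library. Ptger4 rose 1.76-fold in NLS at t6 (log2 fold change 0.82, SE 0.22, edgeR adjusted p = 0.0165). This call was lost in the fit on the compared libraries alone (adjusted p = 0.0539), without line 6 (0.0972), 7 (0.0512) or 16 (0.0617), without the NLS t0 library of line 6 (0.0747) and without the NLS t6 library of line 7 (0.0652). The value at t48 against t0 was 0.30 in NLS (SE 0.22, adjusted p = 0.352) and 0.54 in LacZ (SE 0.25, adjusted p = 0.154), neither called. From NLS t6 to t48 the log2 fold change was -0.52 (SE 0.21, adjusted p = 0.0893), and with the cell line as a block it passed the threshold (adjusted p = 0.0439). NLS lay 1.97-fold below LacZ at t0 (-0.98, SE 0.24, adjusted p = 0.00454) and 2.32-fold below it at t48 (-1.21, SE 0.23, adjusted p = 0.000689). Without the LacZ t0 library of line 12 the difference at t0 was not called (adjusted p = 0.06). Ptger4 shares 82 exonic bases with Ttc33 on the opposite strand, which lay between 32.7 and 40.7 CPM, and whether quantification used strand is not given in the sources used here.

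Calcrl (ENSMUSG00000059588, chr2:84330626-84425411, minus strand) encodes the calcitonin receptor-like receptor, which reaches the cell surface only with a receptor activity-modifying protein (RAMP). Ramp1 makes it a receptor for calcitonin gene-related peptide, and Ramp2 or Ramp3 a receptor for adrenomedullin. Calcrl was at 2.15 and 1.75 CPM in LacZ t0 (lines 10 and 12) and at 4.61 and 4.71 CPM in LacZ t48. In the NLS lines 6, 7 and 16 it was at 2.26, 2.66 and 2.16 CPM at t0, at 1.97, 2.18 and 2.39 CPM at t6, and at 0.8003, 0.489 and 0.690 CPM at t48. The 3 NLS t48 libraries were the lowest of the 13 and the 2 LacZ t48 libraries the highest, and the other 8 lay between 1.75 and 2.66 CPM. Calcrl fell 3.57-fold in NLS at t48 against t0 (log2 fold change -1.83, SE 0.22, edgeR adjusted p = 4.99e-05) and 3.29-fold against t6 (-1.72, SE 0.23, adjusted p = 8.13e-05). In LacZ it rose 2.39-fold at t48 (1.26, SE 0.24, adjusted p = 0.00292), a call lost without line 10 (adjusted p = 0.0543) and without line 12 (0.102). The NLS change minus the LacZ change was -3.09 on the log2 scale (SE 0.33, adjusted p = 2.6e-05, an 8.54-fold difference), and it was called in all 23 alternatives run (adjusted p up to 0.00351). At t48 Calcrl was 7.04-fold lower in NLS than in LacZ (-2.81, SE 0.23, adjusted p = 4.06e-07). At t0 the difference was 0.28 (SE 0.22, 95% interval -0.20 to 0.76), not called. The summed level of the endothelial markers, which come from a cell type rich in Calcrl and Ramp2, was 2.28 to 4.58 CPM over all libraries, and 2.31 to 4.26 CPM at NLS t0 beside 3.72 to 4.58 CPM at NLS t48. Its part in the values of both genes was not tested.

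Ramp1 (ENSMUSG00000034353, chr1:91179822-91225196, plus strand) had no reads in 11 of the 13 libraries and 1 and 2 reads in the LacZ t48 libraries, at most 0.111 CPM. Ramp2 (ENSMUSG00000001240, chr11:101246028-101259546, plus strand) was at 0.804 and 1.25 CPM in LacZ t0 (lines 10 and 12) and at 1.11 and 1.69 CPM in LacZ t48. NLS lines 6, 7 and 16 had 3.41, 2.53 and 3.35 CPM at t0, 3.65, 2.23 and 3.03 CPM at t6, and 6.21, 6.40 and 6.74 CPM at t48. Every NLS library lay above every LacZ library, and the 3 NLS t48 libraries lay above all others. Ramp2 rose 2.08-fold in NLS at t48 against t0 (log2 fold change 1.06, SE 0.21, edgeR adjusted p = 0.00227) and 2.16-fold against t6 (1.11, SE 0.21, adjusted p = 0.00142). In LacZ the t48 value was 0.45 (SE 0.33, adjusted p = 0.383), and the NLS and LacZ changes were not called different (0.61, SE 0.39, 95% interval -0.23 to 1.45, adjusted p = 0.285). NLS exceeded LacZ 2.99-fold at t0 (1.58, SE 0.28, adjusted p = 0.000495) and 4.57-fold at t48 (2.19, SE 0.27, adjusted p = 1.71e-05). Transcript Ramp2-203 shares 1103 exonic bases with Vps25 on the same strand, while the other 7 Ramp2 transcripts share none. Counted from those 7 alone, Ramp2 was at 2.54 to 3.27 CPM in NLS t0 and at 5.56 to 6.39 CPM in NLS t48, whereas Vps25 went from 88.1 to 95.1 CPM at t0 to 67.3 to 73.5 CPM at t48.

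Ramp3 (ENSMUSG00000041046, chr11:6658521-6677475, plus strand) had the widest spread between NLS lines of the tested genes. It was at 18.02 and 17.03 CPM in LacZ t0 (lines 10 and 12) and at 22.2 and 16.7 CPM in LacZ t48. In the NLS lines 6, 7 and 16 it was at 4.29, 9.78 and 1.34 CPM at t0, at 14.1, 23.4 and 8.59 CPM at t6, and at 1.55, 3.07 and 0.850 CPM at t48. Line 7 was the highest and line 16 the lowest at each NLS time, and within each line t6 was highest and t48 lowest. From t0 to t6 it rose 3.28 times in line 6, 2.40 times in line 7 and 6.40 times in line 16. The fit over group means, which takes the differences between lines as spread, did not call the t6 rise (log2 fold change 1.56, SE 0.61, edgeR adjusted p = 0.11), while the fit with the cell line as a block did (1.70, SE 0.19, adjusted p = 7.08e-05). Likewise t48 against t0 was -1.47 (SE 0.75, adjusted p = 0.19) without the block and -1.44 (SE 0.25, adjusted p = 0.00106) with it. Both estimates move with the NLS t0 library of line 7, though in the fit over group means t48 against t0 was called neither with it nor without it. The t6 rise was furthest from the threshold without line 6 (adjusted p = 0.3805). Without the NLS t0 library of line 7 the fit over group means gave 2.42 at t6 (adjusted p = 0.0296) and -0.61 at t48 (0.602), and without line 7 altogether 1.99 (0.0402) and -1.22 (0.267). From t6 to t48 Ramp3 fell 8.19-fold (-3.03, SE 0.70, adjusted p = 0.0118), and without line 6 this was not called in the fit over group means (adjusted p = 0.11). In LacZ the t48 change was 0.15 (SE 0.69, adjusted p = 0.915), and the difference between the NLS and LacZ changes was -1.62 (SE 1.02, adjusted p = 0.297), or -1.57 with the block (SE 0.32, adjusted p = 0.00314). NLS lay 10.4-fold below LacZ at t48 (-3.38, SE 0.74, adjusted p = 0.00542). At t0 the difference of -1.76 (SE 0.66, adjusted p = 0.0606) was not called, though all 3 NLS libraries lay below both LacZ libraries, and without the NLS t0 library of line 7 it was (adjusted p = 0.0143).

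The balance of Ramp3 to Ramp2 therefore turned over between labels. On the length-scaled TPM scale, Ramp3 exceeded Ramp2 between 6.97 and 15.6 times in the 4 LacZ libraries. In the NLS lines 6, 7 and 16 the ratio of Ramp3 to Ramp2 was 0.844, 2.53 and 0.280 at t0, 2.84, 5.18 and 1.97 at t6, and 0.171, 0.306 and 0.0769 at t48. Ramp3 was thus the more abundant of the pair in all 3 lines at t6 and the less abundant in all 3 at t48, with the lines split at t0. Ramp3 made up 87.3 to 93.7% of the summed TPM of the 3 RAMP genes in LacZ and 7.14 to 23.4% in NLS t48. These ratios are descriptions with no test of their own, and the Ramp2 value on this scale depends on how Salmon divided its reads among transcripts of unlike length.

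**Figure D2:**
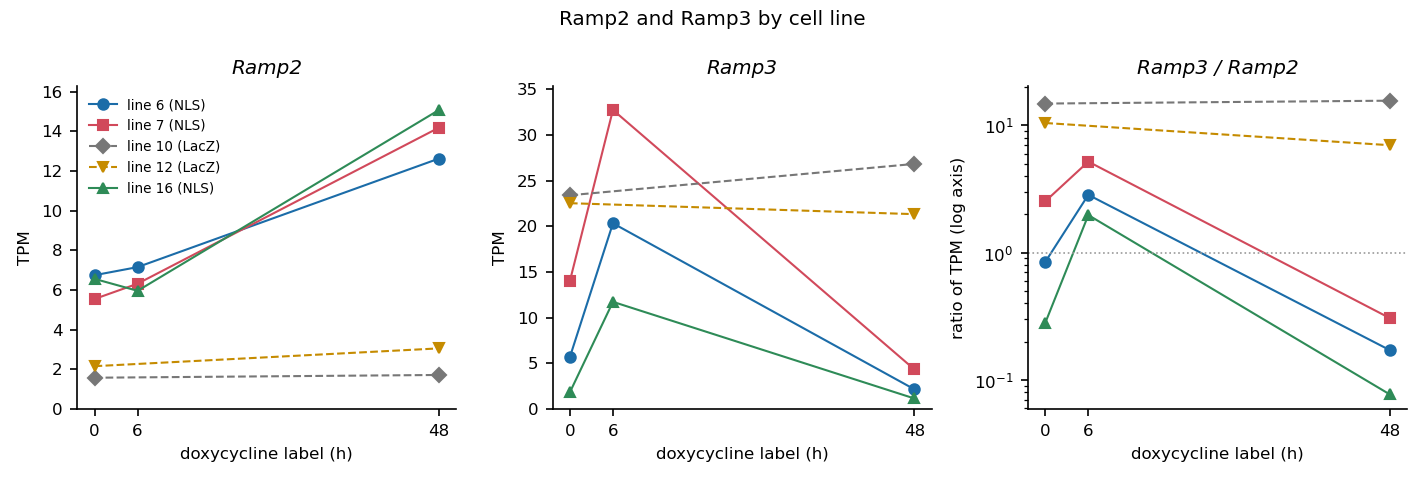
The left and middle panels show Ramp2 and Ramp3 in TPM against the doxycycline label in hours, with 1 line a cell line (solid for NLS, dashed for LacZ), and the right panel shows their ratio on a log axis with a dotted line at equal levels. Each NLS line peaks at 6 h in Ramp3 (11.7 to 32.8 TPM) and falls below the dotted line at 48 h, while both LacZ lines stay above it.

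Pth1r (ENSMUSG00000032492, chr9:110722085-110747145, minus strand) encodes the shared receptor of parathyroid hormone and parathyroid hormone-related protein, best known from bone and kidney. It was at 0.429 and 0.949 CPM in LacZ t0 (lines 10 and 12) and at 0.834 and 0.768 CPM in LacZ t48. For NLS lines 6, 7 and 16 the values were 1.37, 1.40 and 0.958 CPM at t0, 1.73, 0.674 and 1.42 CPM at t6, and 4.52, 3.51 and 5.204 CPM at t48. The 3 NLS t48 libraries stood above the other 10, which spanned 0.429 to 1.73 CPM. Pth1r rose 3.52-fold in NLS at t48 against t0 (log2 fold change 1.82, SE 0.32, edgeR adjusted p = 0.000955) and 3.42-fold against t6 (1.77, SE 0.32, adjusted p = 0.00101). NLS exceeded LacZ 5.47-fold at t48 (2.45, SE 0.40, adjusted p = 0.000205) and the difference at t0 was 0.84 (SE 0.42, adjusted p = 0.123). In LacZ the t48 change was 0.20 (SE 0.48, adjusted p = 0.818). The NLS and LacZ changes differed by 1.61 (SE 0.58, adjusted p = 0.0605), which was not called, and by 1.56 with the cell line as a block (SE 0.54, adjusted p = 0.0309), which was. It was also called with no filter on low counts (adjusted p = 0.0467), without line 7 (0.0226), without the NLS t6 library of line 7 (0.0309) and without the LacZ t0 library of line 10 (0.037), and reached 0.538 without line 12. Among 6 osteoblast markers, 4 passed the filter and 3 of these rose in NLS at t48 against t0, among them Alpl (0.0887 ± 0.115 to 1.48 ± 0.234 CPM, SD, n = 3) and Sp7 (0.656 ± 0.204 to 2.91 ± 1.04 CPM). Of all tested genes, 14.8% were called higher there. In LacZ at t48 against t0, 2 of the 4 were called lower, against 9.87% of all tested genes. Dmp1, the other tested marker besides Runx2, went the opposite way between constructs, at 31.9 ± 6.97 CPM in LacZ t0, 7.91 ± 1.86 in LacZ t48 (n = 2) and means of 0.411 to 1.38 CPM in the NLS groups. The summed level of the 6 was 50 to 62.9 CPM at NLS t0, 64.4 to 66.8 CPM at NLS t48 and 62.1 to 99.6 CPM in LacZ, with Runx2 at 48.7 to 64.1 CPM, and Ibsp and Bglap stayed at no more than 0.24 CPM. The part of these genes in the Pth1r value was not tested.

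Gnas (ENSMUSG00000027523, chr2:174284320-174346744, plus strand) encodes the alpha subunit of Gs, through which all the receptors above signal. It was at 1006 and 983 CPM in LacZ t0 (lines 10 and 12) and at 1077 and 1011 CPM in LacZ t48. For NLS lines 6, 7 and 16 the values were 735, 670 and 751 CPM at t0, 720, 698 and 787 CPM at t6, and 917, 874 and 943 CPM at t48. All 9 NLS libraries lay below all 4 LacZ libraries, and the NLS t48 libraries lay above the other 6 NLS libraries. Gnas rose 1.27-fold in NLS at t48 against t0 (log2 fold change 0.34, SE 0.06, edgeR adjusted p = 0.000925) and 1.24-fold against t6 (0.31, SE 0.06, adjusted p = 0.00158). In LacZ the t48 change was 0.07 (SE 0.07, 95% interval -0.09 to 0.23, adjusted p = 0.556). The NLS and LacZ changes differed by 0.27 (SE 0.10, adjusted p = 0.0524), and by 0.27 with the cell line as a block (SE 0.06, adjusted p = 0.00237). Of 23 alternatives 7 called it, among them the block, DESeq2 (adjusted p = 0.0325), transcript length offsets (0.0342) and the fits without line 7 (0.0411), without the NLS t48 library of line 7 (0.0466) and without the line 16 library of NLS t0 (0.0497) or t6 (0.0408). The highest adjusted p was 0.271, without line 12. NLS lay 1.38-fold below LacZ at t0 (-0.47, SE 0.07, adjusted p = 7.21e-05) and 1.14-fold below it at t48 (-0.20, SE 0.07, adjusted p = 0.0277). The difference at t48 was not called without the LacZ t48 library of line 10 (adjusted p = 0.204) or the NLS t48 library of line 6 (0.0735) or 7 (0.0868). The antisense gene Gm20721 shares 1469 exonic bases with Gnas and had 0.156 to 3.35 CPM.

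Gnas makes a long and a short Gs-alpha, which differ by the use of exon 3. The junction after exon 2 is shown for the 3 transcripts that carried the reads, since these bases set the forms apart. Each line gives 15 bases of exon 2, then in capitals the bases that differ, then 15 bases from the shared part of exon 4, 5′ to 3′ on the plus strand.
Gnas-208: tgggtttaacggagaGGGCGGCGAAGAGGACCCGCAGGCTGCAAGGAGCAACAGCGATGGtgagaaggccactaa
Gnas-207: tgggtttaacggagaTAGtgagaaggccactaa
Gnas-206: tgggtttaacggagatgagaaggccactaa
In Gnas-208 the capitals are the 45 bases of exon 3 (chr2:174336747-174336791, GRCm38), 15 codons that lie in the coding part. Gnas-207 lacks exon 3 and begins exon 4 with 3 more bases than Gnas-206, which lacks both. The coding sequences hold 1182, 1140 and 1137 bases. Gnas-208 was at 863.5 ± 18.2 TPM in LacZ t0 (SD, n = 2) and 856.2 ± 31.0 in LacZ t48, and at 637.6 ± 34.4, 681.3 ± 48.7 and 840.6 ± 23.8 TPM in NLS t0, t6 and t48 (n = 3). Gnas-207 was at 89.3 to 91.0 TPM in LacZ t0 and 59.1 to 64.2 TPM in NLS t0, and Gnas-206 at 61.0 to 63.0 and 32.9 to 39.6 TPM. Transcripts with exon 3 made up 84.52 to 86.02% of the TPM of long and short forms in the 4 LacZ libraries and 85.81 to 89.63% in the 9 NLS libraries. The means were 85.16 and 87.66%, a difference of 2.51 percentage points (two-sided exact permutation test over 9 and 4 libraries, p = 0.00839). Libraries of a line are not independent, and over the means of 3 and 2 lines the exact permutation test gave p = 0.2, the smallest that its 10 arrangements allow. Line 7 had the lowest share of the NLS lines at each time. Transcripts from the upstream first exons of the locus, which include those of the neuroendocrine protein NESP55 and of XL-alpha-s, had no more than 5.55 reads in a library, 0.0285% of Gnas reads.

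**Figure D3:**
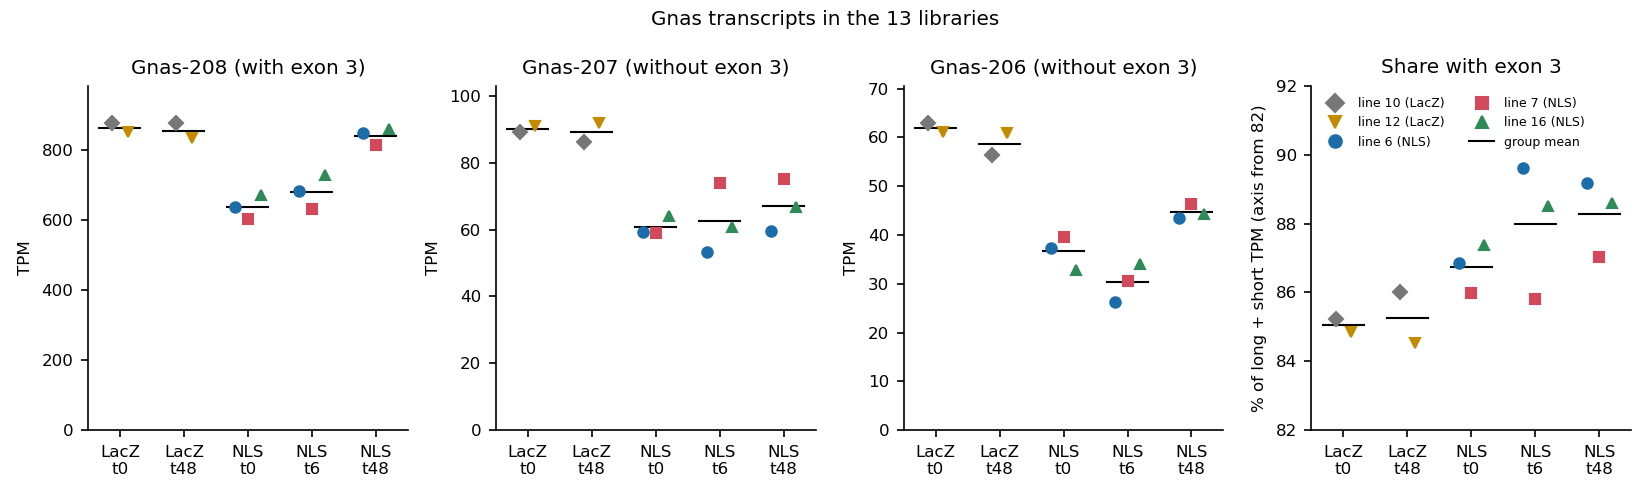
The first 3 panels show the level of each main Gnas transcript in TPM (axes from 0) by group, with symbols for the cell line and a black line at the group mean, and the fourth shows the share of transcripts with exon 3 on an axis that starts at 82%. All 3 transcripts are lower in NLS t0 than in LacZ t0, and Gnas-208 at NLS t48 (814.0 to 860.0 TPM) overlaps LacZ t48 (834.3 to 878.2 TPM) while Gnas-207 and Gnas-206 do not.

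Counted over the 7 tested genes, the NLS comparisons gave more calls at t48 than at t6, as they did over all tested genes. Because the genes were chosen with earlier results of these data known, the counts here are descriptions only. In NLS t6 against t0, 2 of the 7 were called (Ptger4 higher, Adora2b lower), where 20.8% of all tested genes were called (11.6% higher, 9.23% lower). With the cell line as a block, Ramp3 was called too, 3 of 7 against 34.7%. At NLS t48 against t0 there were 4 (Pth1r, Ramp2 and Gnas higher, Calcrl lower), against 26.1% of all tested genes (14.8% higher, 11.3% lower), and 5 with the block, against 39.8%. Between NLS t6 and t48, 6 were called (Adora2b, Gnas, Pth1r and Ramp2 higher at t48, Calcrl and Ramp3 lower), against 28.2% (14.6% higher, 13.6% lower), and all 7 with the block, against 41.2%. These 3 comparisons share libraries in pairs. In LacZ t48 against t0, Adora2b and Calcrl were called higher, 2 of 7 against 18.5% (8.68% higher, 9.87% lower), and 2 with the block, against 33%. The NLS and LacZ changes at t48 were called different for 2 of 7, again Adora2b and Calcrl, both lower in NLS, against 23.3% (12.1% higher, 11.2% lower). With the block, 5 of 7 were called, against 37.4%. Between constructs, 4 of 7 were called at t0, 2 in each direction, against 43.5% of all tested genes (21.1% higher, 22.4% lower in NLS). All 7 were called at t48, 3 higher and 4 lower in NLS, against 45.1% (23% higher, 22.2% lower). The median log2 fold change of the 7 was 0.03 at NLS t6, 0.30 at NLS t48 and 0.45 at LacZ t48, each against t0, where the medians of all tested genes were -0.003, -0.007 and 0.001.

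**Figure D4:**
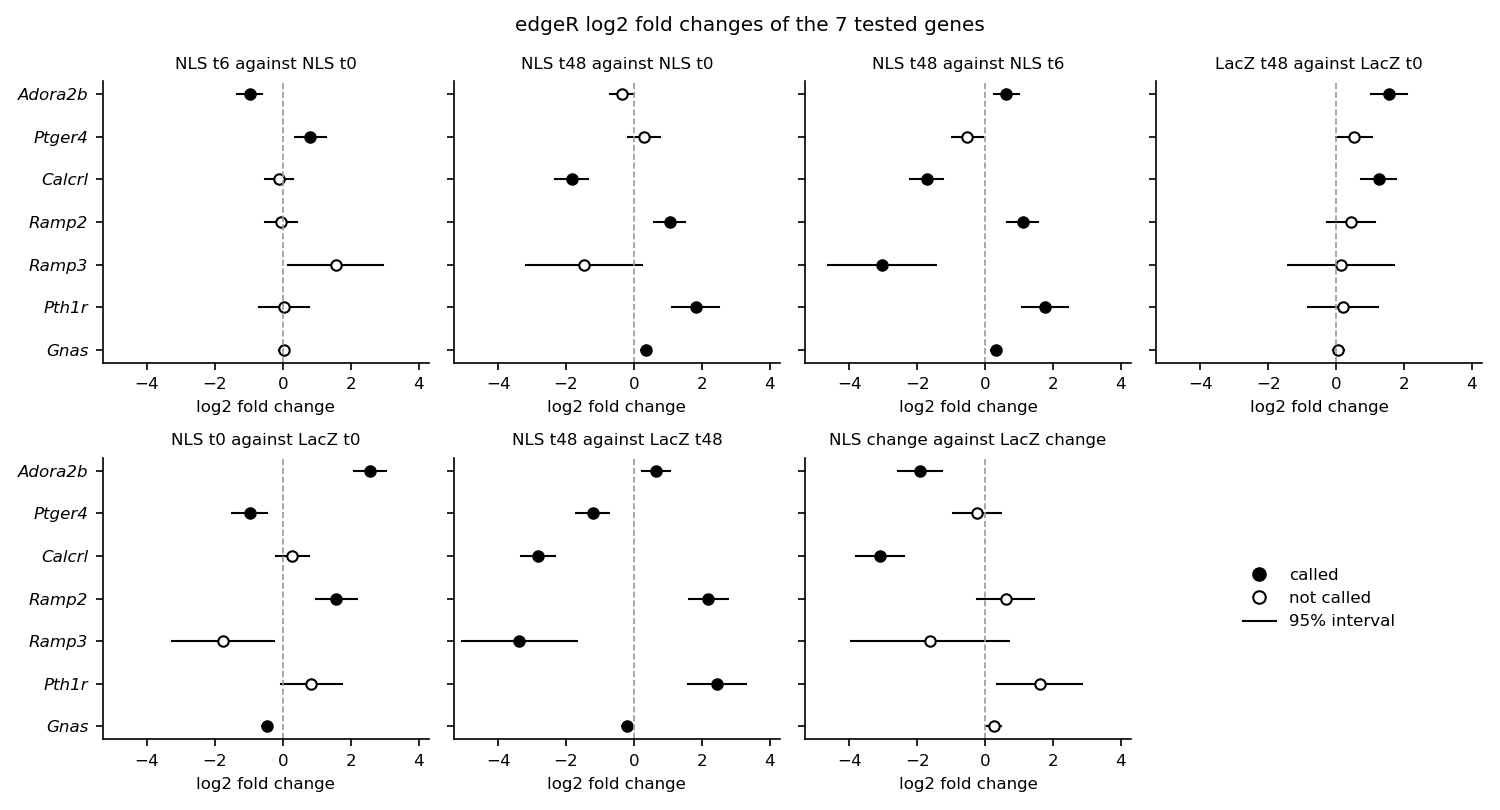
Each panel is 1 comparison, with the edgeR log2 fold change of each tested gene (point) and its 95% interval (line); filled points passed the adjusted threshold of 0.05. Calcrl lies left of 0 in NLS t48 against t0 and right of 0 in LacZ t48 against t0, and Ramp3 has the widest interval in each panel.

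The cell lines of a construct were compared with the time labels as terms. Ramp3 was 3.71-fold higher in line 7 than in line 16 (log2 fold change 1.89, SE 0.21, edgeR adjusted p = 0.000195) and 1.93-fold higher than in line 6 (0.95, SE 0.19, adjusted p = 0.0124). The latter call was lost without the line 6 library of t0 (adjusted p = 0.0938), t6 (0.0969) or t48 (0.0505). Gnas was 1.11-fold lower in line 7 than in line 16 (-0.15, SE 0.04, adjusted p = 0.013), and this call was lost without the NLS t0 library of line 7 (0.0833) or 16 (0.0543), without the NLS t6 library of line 16 (0.0946), and with transcript length offsets (0.0632). Line 7 against 16 thus called 2 of the 7 genes, where 22.6% of all tested genes were called, and line 7 against 6 called 1, against 11.1%. Line 6 against 16 called 0 of 7 by edgeR, against 2.26%, with 1 at an unadjusted p under 0.05 (Ramp3, 0.94, SE 0.22, adjusted p = 0.068), which DESeq2 called (adjusted p = 0.00418). Line 12 against 10 called 0 of 7 by edgeR, against 0.123% of all tested genes, with 1 at an unadjusted p under 0.05 (Ramp2, 0.61, SE 0.29, adjusted p = 0.401). DESeq2 called 0 of 7 there. The shares of all tested genes given for the lines are those of edgeR, and those of DESeq2 are not given. Adcy10 stood 347.9-fold higher in line 6 than in line 16 and 187.8-fold higher in line 7. From high to low the lines stood in the order 6, 7, 16 in Adcy10 and 7, 6, 16 in Ramp3. A link between the levels of these genes was not tested.

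For each tested gene, the 3 genes whose log2 CPM followed it most closely over the 13 libraries were sought among 10374 genes. Only the closest of each 3 is named. Pearson's r is a description here, since the libraries share lines and groups. Ramp2 followed Fstl1 (r = 0.997), the gene of a secreted follistatin-like protein, and Ramp3 followed Areg (r = 0.984), the gene of the EGF-family ligand amphiregulin, at 1.27 to 26.0 CPM. Adora2b followed Cpne8 (0.970), Calcrl followed Pik3r5 (0.970), a regulatory subunit of phosphoinositide 3-kinase gamma, Gnas followed Col5a3 (0.974), a collagen gene, Pth1r followed Dnajc1 (0.958), and Ptger4 followed Etv4 (0.944), an ETS-family transcription factor. Among the 7 genes themselves, r was highest for Ramp2 with Pth1r (0.899) and lowest for Ramp2 with Ramp3 (-0.809).

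The other genes of the pathway were read from 7 lists with 119 genes. The shares of all tested genes called higher and lower, against which the counts stand, were 11.6 and 9.23% at NLS t6, 14.8 and 11.3% at NLS t48 and 8.68 and 9.87% at LacZ t48, each against t0, 12.1 and 11.2% for the difference of changes, and 21.1 and 22.4% between NLS and LacZ at t0. At NLS t48 against t0 the medians of the lists, in the order below, were -0.39, -0.022, 0.31, -0.058, 0.069, -0.032 and -0.06, where that of all tested genes was -0.007. Of 43 further Gs-coupled receptors, 4 passed the filter and 15 had no reads in any library, among them Vipr1, Calcr and Avpr2. Mc1r, the receptor of the pigment hormone, had at most 0.33 CPM. Vipr2, a receptor of vasoactive intestinal peptide, fell in NLS from 21.4 ± 2.54 CPM at t0 to 13.8 ± 2.20 at t6 (SD, n = 3; log2 fold change -0.63, SE 0.16, adjusted p = 0.0155) and 8.07 ± 1.18 at t48 (-1.41, SE 0.17, adjusted p = 6.78e-05). Crhr1, the corticotropin-releasing hormone receptor, rose at t6 (0.58, SE 0.15, adjusted p = 0.0153) and fell at t48 (-0.46, SE 0.16, adjusted p = 0.0471), from 13.1 ± 2.71 to 19.7 ± 2.70 and 9.56 ± 0.733 CPM, and fell in LacZ at t48 (-0.83, SE 0.18, adjusted p = 0.00727). This list thus had 1 gene higher and 1 lower at NLS t6, 2 lower at NLS t48 and 1 lower in LacZ. Between constructs at t0, 1 was higher (Glp2r) and 1 lower (Crhr1) in NLS. At t48, 1 was higher and 3 were lower in NLS, where 23 and 22.2% of all tested genes were. The Vipr2 call at t6 held in 18 of 22 alternatives (highest adjusted p = 0.447, with transcript length offsets). Those of Crhr1 held in 18 of 22 at t6 (0.152, without line 6), 10 of 22 at t48 (0.279, without line 7) and 17 of 21 in LacZ (0.105, without line 12).

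The ligand side was read for each receptor. Of 9 genes on the list of peptide ligands, 5 passed the filter, with 2 lower at NLS t6 (Adm2 and Crcp) and 1 higher at NLS t48. The list also holds Crcp and Pam, which encode no peptide ligand. Adm, the gene of adrenomedullin, had at most 0.107 CPM. Adm2, the gene of the related peptide adrenomedullin 2, fell in NLS from 27.8 ± 5.70 CPM at t0 to 17.5 ± 1.14 at t6 (SD, n = 3; log2 fold change -0.67, SE 0.13, adjusted p = 0.00304) and rose to 33.1 ± 3.53 at t48 (0.92 against t6, SE 0.13, adjusted p = 0.000172). Without line 6 its fall at t6 was not called (adjusted p = 0.0615). LacZ had 13.1 ± 0.0722 CPM of Adm2 at t0 and 11.04 ± 0.675 at t48 (n = 2). Calcb, which encodes the beta form of calcitonin gene-related peptide, rose in NLS at t48 (0.80, SE 0.26, adjusted p = 0.0365), from 1.002 ± 0.212 to 1.75 ± 0.229 CPM, a call that held in 10 of 22 alternatives (0.309 without line 16). Pthlh, the gene of parathyroid hormone-related protein, was lower in NLS than in LacZ at t0 (5.04 ± 0.984 against 12.2 ± 2.91 CPM, -1.26, SE 0.19, adjusted p = 9.8e-05), and Pth had no reads. Among receptors of the same ligands with other couplings, 5 genes with 3 past the filter, Ackr3, the atypical receptor that takes up chemokines and adrenomedullin, rose in NLS at t48 (0.31, SE 0.08, adjusted p = 0.013) and fell in LacZ (-0.43, SE 0.10, adjusted p = 0.0101). These calls held in 19 of 22 alternatives (0.0663 without line 16) and 16 of 21 (0.179 without line 10). Of the 3 tested genes of that list, 3 were called lower in LacZ at t48 and 3 had a higher change in NLS than in LacZ. Ptger1, the EP1 receptor, was among them, and with transcript length offsets it lost both calls (adjusted p = 0.635 and 0.644).

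Of 9 genes of prostaglandin supply, 8 passed the filter. Ptgs2, the inducible cyclooxygenase, rose in NLS from 84.2 ± 12.4 CPM at t0 to 147 ± 21.2 at t6 (SD, n = 3; log2 fold change 0.81, SE 0.12, adjusted p = 0.000765) and 178 ± 11.5 at t48 (1.082, SE 0.12, adjusted p = 5.6e-05). Its t48 change in NLS exceeded that in LacZ by 1.37 (SE 0.19, adjusted p = 0.000405), since LacZ went from 231 ± 23.2 to 188.9 ± 13 CPM (n = 2). Slco2a1, a prostaglandin transporter, fell at NLS t6 (-0.58, SE 0.17, adjusted p = 0.0234), in 12 of 22 alternatives (0.144 without line 6). With Pla2g4a higher (0.47, SE 0.08, adjusted p = 0.00101) and Ptgs1 lower (-0.24, SE 0.07, adjusted p = 0.0266, 0.126 without line 6), the list had 2 higher and 1 lower at NLS t48. Of 12 genes of adenosine supply, 8 passed the filter, with 3 lower at NLS t6 and 1 higher and 2 lower at NLS t48. Nt5e, the ecto-enzyme CD73 that makes adenosine from AMP, fell at NLS t6 from 12.4 ± 2.99 to 6.70 ± 0.407 CPM (-0.88, SE 0.18, adjusted p = 0.00442, 0.0517 without line 16). Adk, which removes adenosine, fell at t48 (-0.53, SE 0.06, adjusted p = 2.81e-05), and Slc29a1, an adenosine transporter, fell in LacZ at t48 (-0.63, SE 0.065, adjusted p = 3.89e-05).

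Of 27 genes for other G protein subunits, 20 passed the filter, with 3 higher and 3 lower at NLS t6, and 1 higher and 1 lower at NLS t48. Gnal, the olfactory relative of Gnas that also stimulates adenylyl cyclase, had 0.471 to 2.15 CPM. Gnai2, an inhibitory alpha subunit, had 290 to 413 CPM and was lower in NLS than in LacZ at t48 (log2 fold change -0.46, SE 0.05, adjusted p = 5.71e-06). Gnb4, a beta subunit, rose at NLS t6 (0.75, SE 0.09, adjusted p = 0.000107) and was 2.31-fold lower in NLS than in LacZ at t0 (-1.21, SE 0.10, adjusted p = 5.52e-07). At t0 the subunit list had 1 gene higher and 9 lower of 20 in NLS, where 21.1% of all tested genes were higher and 22.4% lower, with a median of -0.20 where that of all tested genes was -0.004. All 14 receptor regulators passed the filter, with 4 higher and 1 lower at NLS t6 and 3 higher and 2 lower at NLS t48. Grk3, a receptor kinase, was at 0.0295 ± 0.0511 CPM in NLS t0 and at 0.636 ± 0.268 and 0.722 ± 0.0910 CPM at t6 and t48 (SD, n = 3). Arrb1, the gene of beta-arrestin 1, fell at NLS t48 (-0.47, SE 0.07, adjusted p = 0.000319, 0.282 with transcript length offsets), and Slc9a3r1, the gene of the scaffold NHERF1 that binds the parathyroid hormone receptor, rose (0.53, SE 0.10, adjusted p = 0.00117) but was 4.37-fold lower in NLS than in LacZ at t0 (-2.13, SE 0.10, adjusted p = 1.58e-09).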

How the data were processed

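RNA was taken up in Trizol and made into stranded paired-end Truseq mRNA libraries, per the labels' protocols. The authors deposited, for each of 13 libraries, Salmon's estimated counts, TPM and effective lengths per transcript; Salmon 1.2.0 and GRCm38 come from the submitters' processing notes, while for the transcript set and the options no source used here gives any detail. Of 116546 transcripts, 115977 (99.5%) matched a GRCm38 annotation by identifier and were summed over 35498 genes and rounded. Unmatched transcripts held 0.121 to 0.165% of reads.

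Genes were tested with edgeR 4.0.16 (R 4.3.3; quasi-likelihood test, TMM, filter on low counts, robust, 5 group means, all libraries). Line comparisons used line means with time terms. P-values were adjusted by Benjamini-Hochberg over 13044 genes and called below 0.05. CPM use TMM library sizes. Standard errors were derived from the test statistic, and 95% intervals from the same fit. A count of 0 is read against 3 counts. Scripts were tested on simulated data. DESeq2 1.42.0 and other alternatives are listed at the end.

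Line numbers pair the libraries, since a number marks a cell line. Deviations from group means correlated at r = 0.025 to 0.282 over 9 NLS pairs of 1 line and -0.263 to 0.0524 over 18 pairs of different lines, and at -0.0201 in both LacZ pairs. No pair of libraries of a group agreed within sampling noise (lowest chi-square per degree of freedom 7.26).

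The genes and lists were chosen with earlier results of these data known. Genes eligible to be named were the 9, Adcy10, and the 3 genes most correlated with each tested one at a mean log2 CPM of at least 1. From each list, up to 2 higher and 2 lower by smallest p in a comparison were eligible too. Of each 3 correlated genes only the closest is named, and only part of the eligible list genes are. Mc1r, Vipr1, Calcr, Avpr2, Adm, Pth, Gnal, marker genes and overlapping genes were named in addition, after their values were seen. Salmon's split among transcripts of Ptger4, Calcrl, Pth1r and Ramp2 was not stable between libraries, and gene sums were used.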

Additional observations from a re-analysis of the deposited data

Results flagged for a closer look

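The changes of 2 genes at the t48 label differed between the constructs in the test of the difference itself. For Adora2b the log2 change in NLS minus that in LacZ was -1.914 (SE 0.30, edgeR adjusted p = 0.000542). Adora2b rose in both LacZ lines (2.75 and 3.24 times), while the 3 NLS lines stood at 0.917, 0.954 and 0.579 times their t0 level. For Calcrl the difference was -3.094 (SE 0.33, adjusted p = 2.6e-05). Calcrl rose in both LacZ lines (2.15 and 2.69 times) and fell in all 3 NLS lines (to 0.355, 0.183 and 0.3202 times). No cause was tested.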

How the results depend on the processing

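Each value of the 7 tested genes was recomputed under up to 23 alternatives, 1526 values in all. Of these, 1474 kept their side of the threshold, 24 passed it newly and 28 no longer passed it. None of the called values changed sign. Some uncalled values did, such as Calcrl at NLS t6 against t0 (main fit -0.116, alternatives -0.259 to 0.129). The count of called genes moved by over 1.5 times in a few settings. With the replicate block, the difference between the NLS and LacZ changes called 5. The fit on the compared libraries alone called 1 at NLS t6. DESeq2 called 1 in line 6 against 16. Without time terms (no replicate block), line 7 called 0 against 16 and 0 against 6, and with length offsets 1 against 16. Leaving out a library or a line gave 1 to 3 calls at NLS t6, 0 to 2 in LacZ, 2 to 4 for the difference of changes, 0 to 1 in line 6 against 16, 1 to 2 in line 7 against 16 and 0 to 1 in line 7 against 6. The cause was not tested. The block changed no call of the 7 genes other than those of Ramp3, Ptger4, Pth1r and Gnas given above.

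Limits are the low counts of all these genes except Gnas, 2 LacZ lines, constructs that differ in cell line, no LacZ library at t6, and an Adcy10 level that does not follow the labels. mRNA levels say nothing of receptor protein or cAMP.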
